A study of Mus musculus with 2 samples.

Results

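The genes described here are *Tnf*, *Tnfsf9*, *Tnfrsf1a*, *Tnfrsf1b*, *Cd40*, *Tnfrsf9*, *Traf1*, *Nfkb2*, *Nfkbia* and *Tnfaip3*, which are 10 of the 18193 genes that the arrays name. They were chosen by their role in tumor necrosis factor (TNF) signalling, with their values on these same arrays already known, so that their ratios are given as a description. They are read by 22 probe sets, each of which the platform annotation assigns to only 1 of these genes, and 19 of the 22 lay above the signal filter. All samples came from 1 cell line, RAW264.7, which consists of mouse macrophages able to form osteoclasts. They carried either scramble siRNA or *Flcn* targeted siRNA, received new MEM with 10% FCS at 24 hours after transfection, and were harvested 48 hours later. RANKL appears neither in the labels nor in the array methods. RNA of each condition was hybridized to 1 Affymetrix mouse expression array, so that no value has a replicate error, no test was possible, and knockdown of *Flcn* cannot be told apart from other differences between the cultures or the siRNAs. The comparison asks how knockdown of *Flcn*, the gene of the tumor suppressor folliculin, changes the mRNA of these genes.

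TNF is a cytokine that activated macrophages secrete. It binds the receptors encoded by *Tnfrsf1a* and *Tnfrsf1b*, and the receptors of this family recruit TRAF adaptor proteins, which lead to activation of the transcription factor NF-κB. NF-κB in turn induces genes that switch it off again, among them *Nfkbia*, which encodes the inhibitor IκBα, and *Tnfaip3*, which encodes the ubiquitin-editing enzyme A20. The TNF family also contains RANKL, the cytokine of osteoclast differentiation, and its receptor RANK also recruits TRAF adaptors.

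*Flcn*, the siRNA target, had a signal of 145 with *Flcn* siRNA and 209 with scramble siRNA at its probe set 1 (log2 ratio -0.52), 206 and 241 at its probe set 2 (log2 ratio -0.22), and signals of 7.2 and 8.0, under the array medians, at the other. *Gpnmb*, a known readout of *Flcn* loss, had 2500 and 294 (log2 ratio 3.09). The label of the cells was checked with marker genes. All 10 macrophage markers lay above the filter, with a summed signal of 24078 with scramble siRNA and 23219 with *Flcn* siRNA, and among them *Fcgr1*, an Fc receptor, was 2.72-fold lower. Of the T cell, B cell and endothelial markers with a probe set, 0 of 5, 0 of 4 and 0 of 3 lay above it, and of the fibroblast and epithelial markers 1 of 4 and 1 of 4. The summed signals of these 5 lists ran from 12.7 to 43.3 with scramble siRNA and from 17.6 to 41.6 with *Flcn* siRNA. A signal is the linear intensity that the Affymetrix software gives a probe set. Its median over each array was 12.8 with scramble siRNA and 13.6 with *Flcn* siRNA, and genes with a geometric mean of both signals of at least 13.2 passed the filter.

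Sequences before the transcript start are shown for the genes in which a script found the κB consensus, the binding motif of NF-κB. Of the 10 genes, 8 matched the RefSeq promoter table (all but *Cd40* and *Tnfsf9*), with 12 start sites in all. The κB consensus was searched on both strands in the 250 bases before each start, and overlapping matches were merged. It was found in 6 of the 12 windows, which belong to 4 of the 8 genes, and 7.25% of all 32851 such windows hold it. Every start of *Nfkb2* is among the 6. The genes were chosen by role, with NF-κB feedback genes among them, so that nothing is read from these shares. The 150 bases before a start site are given below on the gene's strand in build GRCm38.p6, with κB matches in capitals. For *Tnfaip3* capitals also mark the letters CACGTG, the core of the motif that Tfe3 and related factors bind, which 6.02% of all windows hold.
*Nfkbia*, chr12:55492648-55492797, minus strand: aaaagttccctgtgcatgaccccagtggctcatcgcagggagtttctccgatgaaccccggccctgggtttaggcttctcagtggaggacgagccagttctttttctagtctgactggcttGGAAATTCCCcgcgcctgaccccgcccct
*Tnfaip3*, chr10:19015411-19015560, minus strand: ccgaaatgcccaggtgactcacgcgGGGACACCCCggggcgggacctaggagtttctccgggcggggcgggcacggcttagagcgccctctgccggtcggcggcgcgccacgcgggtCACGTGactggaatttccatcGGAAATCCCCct
*Nfkb2*, chr19:46304587-46304736, plus strand: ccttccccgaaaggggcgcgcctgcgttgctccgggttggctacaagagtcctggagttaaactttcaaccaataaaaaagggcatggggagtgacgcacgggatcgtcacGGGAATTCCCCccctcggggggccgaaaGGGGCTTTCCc
*Tnfrsf9*, chr4:150927849-150927998, plus strand: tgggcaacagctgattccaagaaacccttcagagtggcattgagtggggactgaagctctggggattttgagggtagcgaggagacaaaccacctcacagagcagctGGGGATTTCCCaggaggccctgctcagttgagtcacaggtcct

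The κB match began 29 bases before the start of *Nfkbia*, 125 and 12 bases before that of *Tnfaip3*, 39 and 11 bases before that of *Nfkb2*, and 43 bases before the second start of *Tnfrsf9*. These 4 genes each had a higher signal with *Flcn* siRNA at the probe set that stands for the gene, and so had *Tnf*, *Tnfrsf1a* and *Tnfrsf1b*, whose windows hold no match. The other starts of *Nfkb2* had a match at 236 and at 225 bases. The window of *Traf1* holds no match either, and no match says only that these letters are not within 250 bases. A match is a description of the sequence and does not show that NF-κB binds there.

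Among the ligands, *Tnf* was nearly level between the arrays and *Tnfsf9* was lower with *Flcn* siRNA. *Tnf* had a signal of 241 with scramble siRNA and 267 with *Flcn* siRNA at its only probe set, a log2 ratio of 0.14 or 1.10-fold. Of all genes above the filter, 32.8% had a higher ratio. *Tnfsf9*, which encodes the ligand that gives T cells a co-stimulatory signal through the receptor of *Tnfrsf9*, had a signal of 619.7 with scramble siRNA and 371 with *Flcn* siRNA. The ratio is 1.67-fold lower, with a log2 ratio of -0.74, and 315 of 10285 genes had a lower one. It also rests on a single probe set. In RNA of whole cultures, fewer cells that express a gene and less mRNA per cell cannot be told apart.

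**Figure D1:**
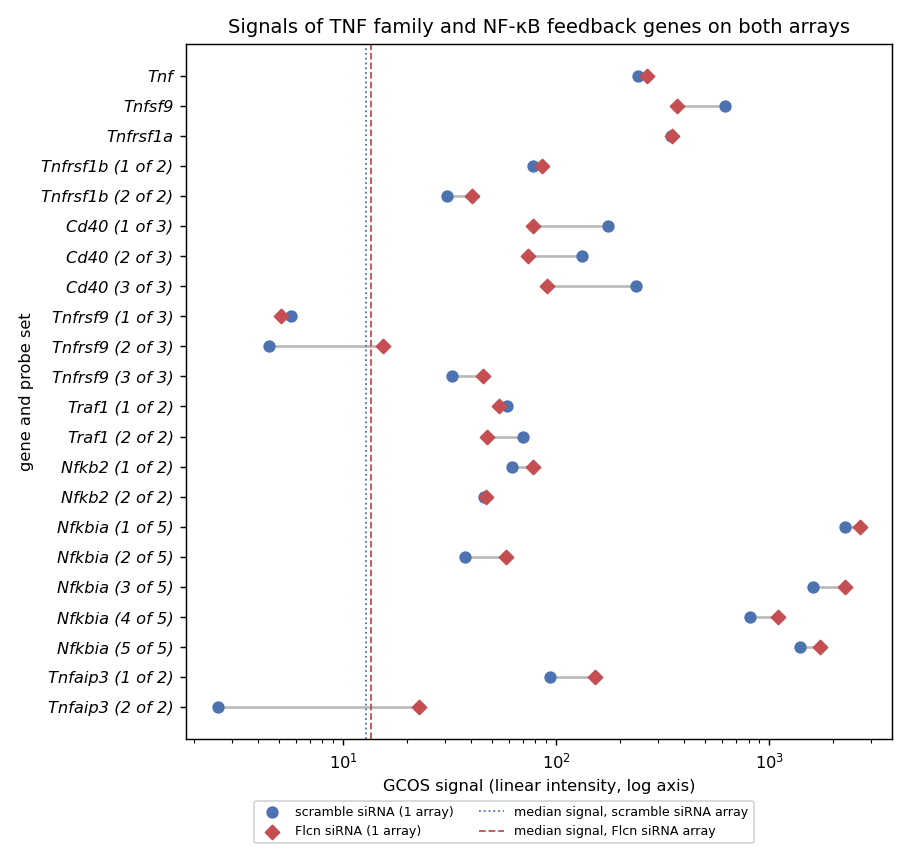
Signal of each probe set (log axis) with scramble siRNA (blue circles) and *Flcn* siRNA (red diamonds), 1 array each, joined by a grey line; vertical lines are the array medians, 12.8 and 13.6. The diamonds of *Cd40* and *Tnfsf9* lie to the left of the circles, those of *Nfkbia* and *Tnfaip3* to the right, and signals of different probe sets are not comparable.

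*Cd40*, the receptor through which helper T cells activate macrophages and B cells, showed the largest difference of the 10 genes. Its signal was 237 with scramble siRNA and 90.8 with *Flcn* siRNA at the probe set with the highest signal, which is 2.61-fold lower (log2 ratio -1.38). Only 27 of 10285 genes, or 0.263%, had a lower ratio. The other *Cd40* probe sets went the same way, with 176 and 78.2 (2.25-fold lower, log2 ratio -1.17) and with 132 and 74.2 (1.78-fold lower, log2 ratio -0.83). The mean log2 ratio of the 3 probe sets was -1.13 ± 0.28 (SD over probe sets, which is no replicate error). The names of all 3 probe sets carry a suffix for probes shared by several transcripts, so that no probe set of *Cd40* is unique to 1 transcript by its ID.

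The TNF receptors themselves differed little. *Tnfrsf1a*, the receptor with a death domain, had a signal of 347 with scramble siRNA and 351 with *Flcn* siRNA, a log2 ratio of 0.016. With median scaling, in which the signals of an array are divided by their median, it was -0.071, so that its direction depends on the scaling. *Tnfrsf1b*, the receptor that lacks a death domain and is found mostly on immune cells, had 77.9 and 86.3 at one probe set (log2 ratio 0.15) and 30.8 and 40.4 at the other (log2 ratio 0.39). Both probe sets lay on the same side of 0, under 1.5-fold.

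*Tnfrsf9*, the receptor for the *Tnfsf9* ligand, had signals of 32.4 with scramble siRNA and 45.5 with *Flcn* siRNA at the only probe set above the filter, 1.40-fold higher (log2 ratio 0.49). Its ligand had the opposite sign. The other probe sets of *Tnfrsf9* were near or under the array medians, with 5.7 and 5.1 at one and 4.5 and 15.4 at the other. The ratio therefore rests on a weak signal at 1 of 3 probe sets.

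*Traf1*, an adaptor that NF-κB induces and that binds several receptors of the family, had a lower signal with *Flcn* siRNA at both probe sets, but of unequal size. The signals were 69.7 with scramble siRNA and 47.4 with *Flcn* siRNA at one (1.47-fold lower, log2 ratio -0.56) and 59.0 and 53.9 at the other (log2 ratio -0.13). Their mean signals are nearly equal, at 57.5 and 56.4, so that a small difference in brightness chose the first to stand for the gene. It lies just under 1.5-fold, and with median scaling it was past it, at a log2 ratio of -0.64.

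*Nfkb2* encodes the precursor of the NF-κB subunit that *Cd40* and related receptors activate by the slower, noncanonical route. Its signals were 62.0 with scramble siRNA and 78.0 with *Flcn* siRNA at one probe set (1.26-fold, log2 ratio 0.33) and 46 and 46.9 at the other (log2 ratio 0.028). The second probe set carries the suffix for probes that may hybridize to other transcripts.

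The feedback inhibitors *Nfkbia* and *Tnfaip3* had higher signals with *Flcn* siRNA at every probe set. For *Nfkbia* the signals with scramble and *Flcn* siRNA were 2261 and 2679 at the brightest probe set, a log2 ratio of 0.24. They were 1598.5 and 2282 (0.51), 1402 and 1741 (0.31), 816 and 1101 (0.43) and 37.4 and 58.2 (0.64) at the others. All 5 probe sets were thus higher, with a mean log2 ratio of 0.43 ± 0.16 (SD over probe sets), and the brightest, which stands for the gene, gave the smallest ratio. Only the dimmest reached 1.5-fold, at 1.56-fold.

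*Tnfaip3* had a signal of 93.6 with scramble siRNA and 152 with *Flcn* siRNA, 1.63-fold higher (log2 ratio 0.70), and 361 of 10285 genes had a higher ratio. Its other probe set had 2.6 and 22.7, and with the scramble signal raised to the array's median it was at least 1.77-fold higher, though under the filter by its mean signal. *Tnfaip3* was the only one of the 10 genes called higher.

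**Figure D2:**
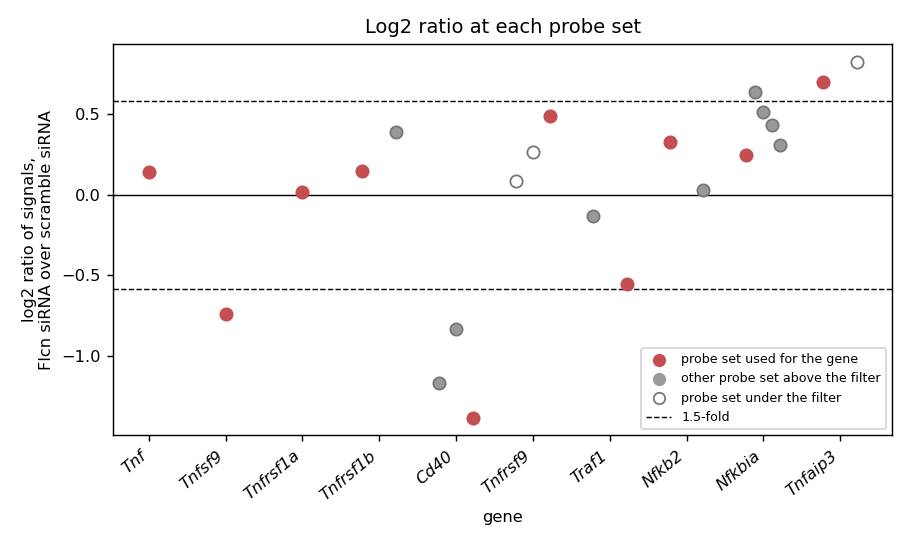
Log2 ratio between the arrays, *Flcn* siRNA over scramble siRNA, at each of the 22 probe sets; red points stand for the gene, grey points are other probe sets above the filter, open points lie under it, and dashed lines mark 1.5-fold. The 3 probe sets of *Cd40* lie below the lower line, from -1.38 to -0.83, and the 5 of *Nfkbia* lie between 0.24 and 0.64.

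By size alone, at 1.5-fold or more, 1 of the 10 genes was called higher (*Tnfaip3*), 2 were called lower (*Cd40* and *Tnfsf9*) and 7 lay between. Over all 10285 genes above the filter, 5.87% were called higher and 5.54% lower, or 604 and 570 genes. Median scaling, which shifts every log2 ratio by -0.087, gave 418 higher and 810 lower calls, a share of higher calls of 34% against 51.4% before. The 10 genes had a median log2 ratio of 0.15, with 7 above 0 and 3 below, beside 0.013 for all genes, of which 51.7% were above 0. Of the 19 probe sets above the filter, 2 were called higher and 4 lower, against 6.56% and 5.92% of 18983 probe sets with 1 gene. Since the genes were chosen with these values known, nothing is read from these counts. No gene of the 10 had a signal under an array's median at the probe set that stands for it.

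How far a ratio stands out depends on the signal behind it. Among 2184 genes with a mean signal under 50, 14.7% were called higher and 9.94% lower, among 3629 genes from 50 to 200 it was 4.99% and 5.24%, and among 4472 genes above that 2.28% and 3.64%. *Cd40*, with a log2 ratio of -1.38, lies in the middle class, where 5% of genes had a ratio under -0.59. *Tnfaip3*, at 0.70, lies in the same class, where 5% were above 0.58. *Tnfsf9*, at -0.74, lies in the brightest class, where 5% were under -0.51. *Tnfrsf9*, at 0.49, lies in the dimmest class, where 5% were above 0.87, and the ratios of the other 6 genes also lay inside the middle 90% of their class. Between probe sets of the same gene the SD of log2 ratios had a median of 0.19 (5034 genes).

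**Figure D3:**
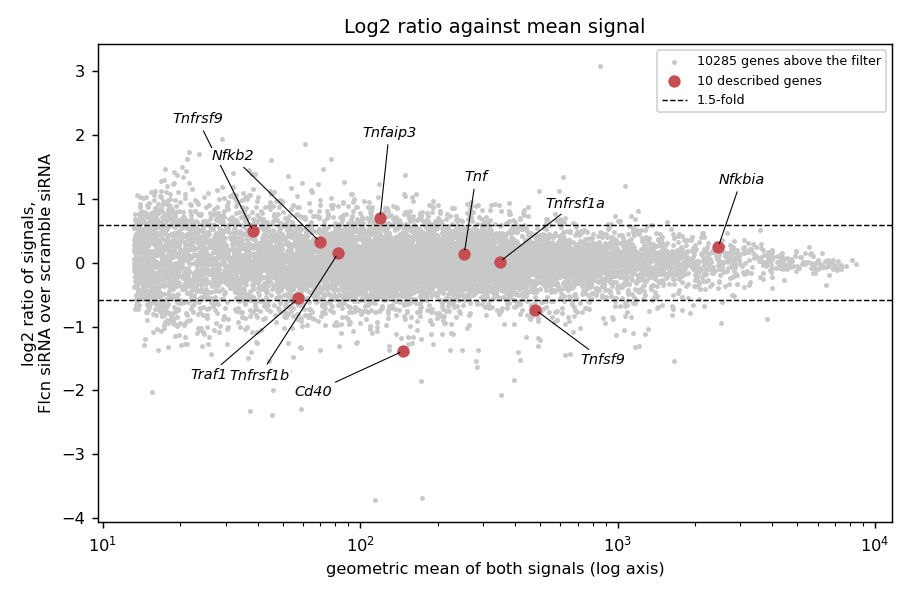
Log2 ratio, *Flcn* siRNA over scramble siRNA, against the geometric mean of both signals (log axis) for 10285 genes (grey) and the 10 described genes (red, named), 1 array per condition; dashed lines mark 1.5-fold. *Cd40* lies at the lower edge of the grey cloud at a mean signal of 147, and the cloud narrows toward bright signals.

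To see the genes beside the rest of the pathway, a list of 137 genes was written by role, which includes the 10. Of these genes 10 were not analysed here and 35 lay under the filter. Of the 92 measured, 15 were called higher and 7 lower, beside 5.87% and 5.54% of all genes, and the median log2 ratio was 0.060. Without the 5 genes that have a signal under the median on 1 array, 12 of 87 were called higher and 6 lower, and the median was 0.050. Under median scaling the calls were 9 higher and 10 lower, and the share of higher calls was 47.4% against 68.2%, while that of all genes was 34% against 51.4%. These shares are of all 92 measured genes, the 5 with a signal under a median included.

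Among 5 measured ligands none was called higher and 2 were called lower, beside 5.87% and 5.54% of all genes. Besides *Tnfsf9* this was *Tnfsf13b*, a B cell survival factor, with a signal of 25.8 with scramble siRNA and 11.7 with *Flcn* siRNA, at least 1.90-fold lower. The latter signal is under that array's median, so that *Tnfsf13b* could pass the filter only through the scramble siRNA array. Without the genes that have a signal under an array's median, 1 of 3 ligands was called lower. Of 12 measured receptors 2 were called higher and 1 lower, *Cd40*, beside the same shares of all genes. The 2 called higher were *Tnfrsf12a*, the receptor for the cytokine TWEAK, with 17.1 and 32.2 (1.88-fold), and *Relt*, with 24.4 and 39.1 (1.60-fold). Both rest on weak signals. *Tnfrsf11a*, which encodes RANK, had 99.1 and 121 (log2 ratio 0.28), under 1.5-fold.

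Of 32 adaptors, kinases and ubiquitin enzymes, which act between receptor and NF-κB, 1 was called higher and 1 lower, beside 5.87% and 5.54% of all genes, with a median log2 ratio of -0.046. *Tank*, a TRAF-binding protein, was 1.54-fold higher, with 653 against 423. Its other probe set above the filter had a log2 ratio of 0.37, under 1.5-fold, so that the call depends on the probe set. *Map3k5*, a stress-activated kinase, was 1.72-fold lower, with 144 against 247. With median scaling, *Tank* was no longer called higher and *Traf1* was called lower.

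The NF-κB subunit *Rel* had a signal of 22.1 with scramble siRNA and 46.4 with *Flcn* siRNA, 2.10-fold higher, at its only probe set above the filter. This call also rests on a weak signal, in the class under 50, where 14.7% of all genes were called higher. *Rela* had 335 and 352 and *Relb* 112 and 90.5, under 1.5-fold. Of 14 genes listed as feedback inhibitors 1 was called higher and 2 lower, beside 5.87% and 5.54% of all genes. The gene called higher was *Tnfaip3*. Those called lower were *Nfkbib*, which encodes IκBβ, and *Traf3ip3*. *Traf3ip3* encodes a protein that binds TRAF3 and modulates JNK signalling, and is not an inhibitor of that kind. Without it, 1 of 13 was called higher and 1 lower, with a median log2 ratio of -0.0075. This removal was chosen after its value was seen, took out a gene called lower and so raised the median. No other gene of the list was taken out. *Nfkbib* had 269 with scramble siRNA and 147 with *Flcn* siRNA (1.83-fold lower), and *Traf3ip3* had 119 and 65.9 (1.80-fold lower). *Nfkbia* and *Nfkbib*, which encode related inhibitors, thus had ratios of opposite sign, and the median of all 14 was -0.070.

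Of 25 measured genes known as NF-κB targets, 10 were called higher and 1 lower, beside 5.87% and 5.54% of all genes. Their median log2 ratio was 0.31, and 18 had a ratio above 0. These counts depend on how roles were assigned, with earlier results of these data known. Genes that NF-κB induces but that stand under other roles are not among the 25. Examples are *Traf1*, at a log2 ratio of -0.56, and *Nfkbia* and *Tnfaip3*, at 0.24 and 0.70. *Ccl5*, *Cd80* and *Cxcl1* had scramble signals under that array's median, of 10.0, 10.5 and 8.8, and could pass the filter only through the *Flcn* siRNA array. Without these 3, 7 of 22 targets were called higher and 1 lower, and the median was 0.25. Of these 7, *Ccl2* and *Csf1* rest on weak signals, with 21.7 and 32.7 and with 16.1 and 25.3. In their class, with a mean signal under 50, 14.7% of all genes were called higher. The highest of the 25 were *Il1rn*, which encodes the interleukin 1 receptor antagonist, with 93.1 with scramble siRNA and 241 with *Flcn* siRNA (2.59-fold), *Plau*, a protease of plasminogen activation, with 386 and 979 (2.54-fold), and the chemokine *Cxcl1*, at least 1.75-fold. *Ptgs2*, an enzyme of prostaglandin synthesis, was 2.39-fold lower, with 80.7 and 33.7. Among the others called higher, *Ccl3* and *Ccl4*, macrophage chemokines, had 814 and 1274 (1.57-fold) and 209 and 362 (1.73-fold), and *Sod2*, the mitochondrial superoxide dismutase, had 805 and 1266 (1.57-fold). Median scaling left 5 targets called higher and 2 lower, a share of higher calls of 71.4% against 90.9%. Among these 5 are *Cd80* and *Cxcl1*, which could pass the filter only through the *Flcn* siRNA array. Both shares therefore rest in part on such genes. Of the 35 targets listed, 10 lay under the filter, among them *Il6* and *Nos2*.

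**Figure D4:**
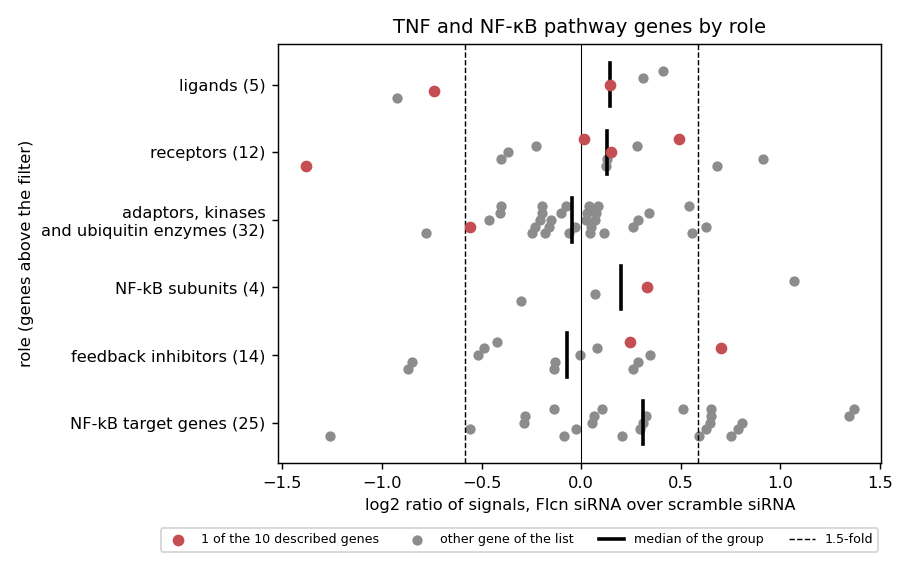
Log2 ratio, *Flcn* siRNA over scramble siRNA, of 92 pathway genes by role, with the number above the filter in parentheses; red points are the 10 described genes, black bars show the median of a role and dashed lines 1.5-fold. The median of the NF-κB target genes, at 0.31, lies farthest to the right, and *Cd40* is the leftmost point. Without *Ccl5*, *Cd80* and *Cxcl1*, which could pass the filter only through the *Flcn* siRNA array, that median was 0.25.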

How the data were processed

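RNA of RAW264.7 cells with scramble or *Flcn* siRNA was measured on 1 array per condition. The values that the authors deposited are GCOS 1.0 signals, intensities on a linear scale, 1 per probe set. With the lowest and highest 2% left out, they average 100 on both arrays, and the further software settings are not stated in the sources read here. Of 45101 probe sets, 932 with several genes and 9211 not in the platform annotation were left out, which leaves 34958 with 1 gene. Of these, 34754 were given the symbol of GRCm38.p6. The 64 control probe sets, which these counts do not separate, were left out as well. The probe set of highest geometric mean over both arrays stands for its gene. A signal below the median of its array was set to that median before the log2 ratio, and where 1 was so set the fold is written as at least. Genes were called by size at 1.5-fold or more, with no p-value. The members and lists were chosen with earlier results of these data known. Named are the 10 genes, *Flcn* and *Gpnmb*, and in each role of the list up to 3 highest and 3 lowest called genes. Other named genes were chosen after their values were seen. These are *Tnfrsf11a*, *Rela*, *Relb*, *Ccl2*, *Ccl3*, *Ccl4*, *Ccl5*, *Cd80*, *Csf1*, *Sod2*, *Fcgr1*, *Il6*, *Nos2*, *Irf5*, *Irf8*, *Stat3*, *Cd86*, *H2-Aa*, *H2-Ab1* and *H2-Eb1*. So were *Cd74*, *Cd276* and *Cd274*, of the list written after the values of *Cd40* were seen. The same holds for the classes of signal and the counts without *Traf3ip3* or without genes under an array's median. For 18 hybridization control probe sets the median log2 ratio was -0.13. Precision is limited by the number of arrays. The 9 alternatives concern scaling, the choice of probe set, the floor and the filter. The functions were tested on simulated data. Computation used pandas 2.3.3, numpy 2.4.6 and scipy 1.17.1 in Python 3.11.15, and matplotlib 3.10.9 drew the figures.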

Additional observations from a re-analysis of the deposited data

How the results depend on the processing

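A value was taken as moved when it differed by over 0.19 on the log2 scale, and a count when it differed by over 1.5 times. With only probe sets unique to 1 transcript, 1 of the 10 genes was called lower, since *Cd40* and *Nfkb2* then have no probe set. Of the pathway genes, 9 were called higher with median scaling. With the filter at the 75th percentile, which leaves 61 of them and 6 of the 10 genes, 7 were called higher and 4 lower. The mean of all probe sets gave *Cd40* a log2 ratio of -1.13 and *Traf1* -0.34. Over all settings in which they were measured, *Cd40* ranged from -1.47 to -1.13, *Tnfsf9* from -0.83 to -0.74, *Tnfaip3* from 0.61 to 0.70 and *Nfkbia* from 0.16 to 0.43, and of the 10 genes only *Tnfrsf1a* changed sign. The other values of the 10 genes (82) and of the list counts and medians (50) did not move. Many of them could not have moved. Median scaling shifts every log2 ratio by -0.087, which is less than 0.19. A change of floor or filter leaves the ratio of a gene with both signals above the medians as it is. A gene with 1 probe set has the same ratio under each choice of probe set. The 82 and 50 are therefore no measure of stability. No paired analysis was possible because each condition has 1 array, and for the same reason no replicate could be left out.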

Other observations

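Genes around *Cd40* in co-stimulation and antigen presentation were listed after the values of *Cd40* were seen, 21 in all, of which 11 were above the signal filter, with a median log2 ratio of -0.23. Of the 11, 2 were called higher and 2 lower, beside 5.87% and 5.54% of all genes. Without *Cd80*, which could pass the filter only through the *Flcn* siRNA array, 1 of 10 was called higher and 2 lower. The median was then -0.27. *Cd74*, the invariant chain of MHC class II, had a signal of 1675 with scramble siRNA and 784 with *Flcn* siRNA, 2.14-fold lower, while the class II genes *H2-Aa*, *H2-Ab1* and *H2-Eb1* lay under the filter. *Cd276*, a ligand of the B7 family, had 314 and 199 (1.58-fold lower). *Cd274*, which encodes the inhibitory ligand PD-L1, went the other way, with weak signals of 25.1 and 51.2 (2.04-fold higher). *Cd80*, a ligand of CD28, was at least 1.69-fold higher, with a scramble signal of 10.5, under that array's median. *Irf5*, *Irf8* and *Stat3*, transcription factors active in macrophages, lay under 1.5-fold, with log2 ratios of -0.33, -0.32 and -0.45. The other probe set of *Irf8* had -0.092 and that of *Irf5* had 0.49, of opposite sign. The 3 probe sets of *Stat3* ran from -0.45 to -0.21. *Cd86* lay under the filter on these arrays.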
